A study of Homo sapiens with 36 samples.

Results

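GATA2 is a zinc finger transcription factor that binds GATA motifs in DNA and works in blood stem and progenitor cells and in early erythroid cells, often in complexes with TAL1, LMO2, LYL1 and LDB1. During red cell maturation it gives way at many sites to GATA1, which binds the same motif. CUT&Tag maps such a protein by directing a tagging enzyme to the place where an antibody sits, so the antibody decides which protein molecules are seen. An epitope tag such as HA (a short peptide of influenza hemagglutinin) gives a second antibody against the same protein, one that can bind the tagged copies and not the untagged ones.

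The values below come from 8 libraries of HUDEP-2, a line of red cell progenitors immortalized from human cord blood, with lowered GATA2 (genotype GATA2+/-) that received lentivirus for HA-tagged GATA2 without the T354M change and were sorted for GFP. The first group of 4 libraries was made with a commercial rabbit anti-HA antibody, and the second group of 4 with an in-house rabbit anti-GATA2 antibody. The 8 libraries were chosen by their titles from the 36 of the series, of which 28 have a peak list. Other groups are used only to look up the same sites: GATA2-low cells with HA-T354M (both antibodies), GATA2-low cells with empty vector (EV; both antibodies) and wild-type (WT) cells with empty vector (anti-GATA2). The genotype label of EV anti-GATA2 replicate 1 reads wild-type against its GATA2-low title, which was followed, so EV anti-GATA2 shares are also given without it. The labels give all cells a medium with SCF, erythropoietin, doxycycline and dexamethasone. No label names separate cultures, so p-values measure the spread between libraries, which may be technical. The labels do not give the epitope of the anti-GATA2 antibody, and the antibody and the pool of protein it can see cannot be told apart in these groups.

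A site is a stretch covered by merged peaks of the 28 lists, and a library has the site if any of its peaks lies in it. Peaks were ranked within a list by the deposited -log10 q, as a percentile with 100 for the strongest. A percentile depends on the length of its list, so between antibodies the position from the top of the list (1 is the strongest) is given instead, or the percentile among sites common to all 8 libraries. The anti-HA lists held 4073, 4942, 6065 and 1912 peaks in replicates 1 to 4, against 7064, 11012, 12171 and 11333 peaks in the anti-GATA2 lists. Every anti-HA list was shorter than every anti-GATA2 list, and anti-HA replicate 4 was the shortest of all. The ratio of geometric means was 0.384 (log2 ratio -1.38, exact two-sided permutation p = 0.0286, n = 4 each, the smallest p that 4 against 4 can give). It was 0.487 without anti-HA replicate 4 (exact permutation p = 0.0571). Read totals are not given with the lists. The lowest local background of a list, with the peak caller's scaling undone, was used as a guide to depth, which was not checked. It was 0.375 to 0.438 fragments in the anti-HA lists and 0.427 to 0.434 fragments in the anti-GATA2 lists. The recovered scaling was 1 in every anti-HA list and 0.648 to 0.686 in the anti-GATA2 lists. Each anti-HA list also held 5 or 6 mitochondrial peaks, later left out, against 0 in each anti-GATA2 list. The scaling thus differed along with the antibody, and their parts in list length and rank cannot be told apart. The median number of fragments at a summit, recovered from the deposited fold and p, was 25 to 27 in anti-HA lists and 43 to 45 in anti-GATA2 lists. At the sites found in all 8 libraries it was 38, 45, 49 and 29 in the anti-HA lists, against 97, 134, 145 and 139.5 in the anti-GATA2 lists. At these common sites, too, the median was lower in every anti-HA library than in any anti-GATA2 library. These medians cover called peaks only, and a scaling below 1 lowers the score that a given number of fragments gets. The counts also rest on the recovered scaling, which is fixed only up to a whole divisor. The part of calling and scaling in these counts was not tested.

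**Figure D1:**
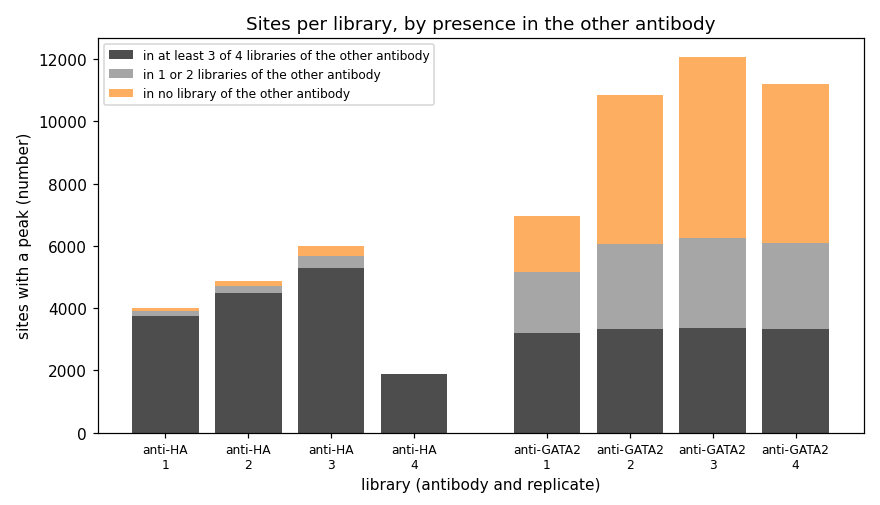
Number of sites with a peak in each library (bars, 4 anti-HA libraries on the left, 4 anti-GATA2 libraries on the right), divided by how many libraries of the other antibody had a peak at the site. In the anti-HA libraries 7 to 330 sites had no peak of the other antibody, against 1810 to 5843 sites in the anti-GATA2 libraries.

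Promoters show the sequence under sites of each kind. RefSeq promoter windows (GRCh38.p14, 250 bases before to 50 after a gene's start) that held a summit were searched on both strands for the letters GATA with A or T before them and A or G after them, where overlapping matches may share letters. The windows with summits in all 8 libraries held a match in 31 of 39 cases (79.5%), against 24.9% of all 34961 windows. Windows with summits of 4 of 4 anti-GATA2 and 0 of 4 anti-HA libraries held one in 51 of 149 cases (34.2%). Windows with summits of any anti-GATA2 and no anti-HA library held one in 21.5% of 1114 cases, and windows with summits of any anti-HA and no anti-GATA2 library in 34 of 201 cases (16.9%). The 9 windows of that last kind with summits in at least 3 anti-HA libraries held none, and they include histone gene pairs read from the same site (H2AC11 with H2BC11 and H2AC20 with H2BC21). A match is a description of letters and not a shown binding site. The windows are printed with the matches in capitals, 5′ to 3′ on the gene's strand, first 3 windows found with both antibodies: EPB42 (a red cell membrane protein; chr15:43220969-43221268, minus strand), GYPB (a glycophorin of the red cell surface with a close paralog in GYPE; chr4:144019296-144019595, minus strand) and TAL1 (a partner of GATA2; chr1:47232286-47232585, minus strand).
EPB42: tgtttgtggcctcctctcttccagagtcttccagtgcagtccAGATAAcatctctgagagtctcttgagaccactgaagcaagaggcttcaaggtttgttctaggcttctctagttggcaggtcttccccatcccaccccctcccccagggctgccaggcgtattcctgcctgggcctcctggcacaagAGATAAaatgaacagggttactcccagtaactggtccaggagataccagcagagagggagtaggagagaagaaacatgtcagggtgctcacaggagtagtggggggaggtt
GYPB: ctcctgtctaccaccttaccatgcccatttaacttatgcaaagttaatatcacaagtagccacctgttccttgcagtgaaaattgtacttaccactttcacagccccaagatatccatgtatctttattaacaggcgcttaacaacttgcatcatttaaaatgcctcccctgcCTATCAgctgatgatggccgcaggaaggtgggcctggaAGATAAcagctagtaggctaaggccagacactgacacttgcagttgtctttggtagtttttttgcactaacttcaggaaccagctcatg
TAL1: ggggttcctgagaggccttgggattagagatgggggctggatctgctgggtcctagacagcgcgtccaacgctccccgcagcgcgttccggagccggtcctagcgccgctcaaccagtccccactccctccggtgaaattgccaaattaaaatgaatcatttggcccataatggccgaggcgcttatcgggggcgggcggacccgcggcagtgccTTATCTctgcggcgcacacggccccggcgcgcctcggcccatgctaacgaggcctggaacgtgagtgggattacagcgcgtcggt
TUT1 is a uridylyltransferase (chr11:62591474-62591773, minus strand) and SYNGR1 a synaptic vesicle protein (chr22:39363897-39364196, plus strand). They are examples of windows with summits of anti-GATA2 alone, and both hold a match, as 51 of the 149 such windows did.
TUT1: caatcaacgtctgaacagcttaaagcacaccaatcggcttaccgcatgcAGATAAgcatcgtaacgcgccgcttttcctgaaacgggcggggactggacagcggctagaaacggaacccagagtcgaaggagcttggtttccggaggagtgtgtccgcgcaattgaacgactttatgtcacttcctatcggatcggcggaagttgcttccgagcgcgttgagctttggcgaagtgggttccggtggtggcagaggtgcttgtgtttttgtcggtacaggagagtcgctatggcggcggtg
SYNGR1: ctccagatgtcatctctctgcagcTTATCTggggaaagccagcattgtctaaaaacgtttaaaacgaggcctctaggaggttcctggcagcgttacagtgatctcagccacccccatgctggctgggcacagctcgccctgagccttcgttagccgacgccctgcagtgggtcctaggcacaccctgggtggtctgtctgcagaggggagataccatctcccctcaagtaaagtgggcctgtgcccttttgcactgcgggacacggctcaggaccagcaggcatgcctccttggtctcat
H2AC11 is a histone H2A gene (chr6:27132793-27133092, plus strand) and TOMM40 a channel of mitochondrial protein import (chr19:44891004-44891303, plus strand). They stand for windows with summits of 3 anti-HA libraries and of no anti-GATA2 library, and they hold no capitals. A window counts summits only. The site at TOMM40 was not among the sites with peaks in at least 3 anti-HA and 0 anti-GATA2 libraries.
H2AC11: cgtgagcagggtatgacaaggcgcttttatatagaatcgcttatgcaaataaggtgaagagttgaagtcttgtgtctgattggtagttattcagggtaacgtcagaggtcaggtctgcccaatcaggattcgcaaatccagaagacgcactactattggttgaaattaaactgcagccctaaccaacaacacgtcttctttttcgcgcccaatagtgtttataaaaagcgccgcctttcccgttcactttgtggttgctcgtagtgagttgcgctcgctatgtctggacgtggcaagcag
TOMM40: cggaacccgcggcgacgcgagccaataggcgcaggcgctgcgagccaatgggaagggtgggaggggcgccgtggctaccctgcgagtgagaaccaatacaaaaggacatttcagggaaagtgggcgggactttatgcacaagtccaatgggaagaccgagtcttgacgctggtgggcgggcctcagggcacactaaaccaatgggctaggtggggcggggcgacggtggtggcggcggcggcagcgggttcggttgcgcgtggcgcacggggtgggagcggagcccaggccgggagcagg

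The EPB42 window lay near the top of every list, at positions 40, 54, 30 and 45 from the top in the anti-HA libraries, against 24, 12, 20 and 20 in the anti-GATA2 libraries. Its summits fell on average at base 104 of the window with anti-HA and at base 95.5 with anti-GATA2. GYPB stood at positions 807, 573, 751 and 275 with anti-HA and 443, 236, 488 and 278 with anti-GATA2, and these overlapped. TAL1 stood at positions 1140, 1075, 1317 and 1344 with anti-HA and 670, 653, 682 and 980 with anti-GATA2, so its anti-HA peak was farther down the list in every library. TUT1 stood at percentiles 69.6, 69.7, 79.8 and 67.6 in the anti-GATA2 lists, and no anti-HA list had a summit in its window. H2AC11 stood at percentiles 71.6, 48.2 and 77.1 in anti-HA replicates 1 to 3 and in no anti-GATA2 list.

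The anti-HA sites were nearly all anti-GATA2 sites, and how many anti-GATA2 sites were anti-HA sites depended on how many anti-HA libraries had to hold them. The 8 libraries together covered 14456 sites, and 1732 of these were found in all 8. Sites in at least 3 of 4 libraries numbered 3406 with anti-HA and 9336 with anti-GATA2, and 3319 were in both sets, 97.4% of the anti-HA set and 35.6% of the anti-GATA2 set. With a single library of the other antibody as enough, 97.1%, 96.5%, 94.6% and 99.6% of anti-HA peaks lay at a site with an anti-GATA2 peak. Of anti-GATA2 peaks, 74.2%, 56.3%, 51.8% and 54.5% lay at a site with an anti-HA peak. Of the 9336 sites, 3460 had no anti-HA peak in any library. By library, the share of sites found in at least 3 of 4 libraries of the other antibody was 93.3%, 91.8%, 88.0% and 99.3% for anti-HA, against 46.0%, 30.8%, 27.8% and 29.8% for anti-GATA2. The means were 93.1 ± 4.69% and 33.6 ± 8.38% (SD, n = 4 each, exact two-sided permutation p = 0.0286). The anti-GATA2 libraries had 6961 to 12084 sites, more than the 3406 sites of the anti-HA set. List length alone thus capped their shares, and the gap and its p do not test how far the antibodies agree. The gap was not called in lists of equal length. With each list shortened to its 1912 strongest peaks, the shares were 67.9 ± 2.53% with anti-HA and 66.3 ± 0.555% with anti-GATA2 (SD, n = 4 each, exact two-sided permutation p = 0.286). At equal length both shares rest on much the same overlap, so a small gap was largely built in and decides nothing about agreement.

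**Figure D2:**
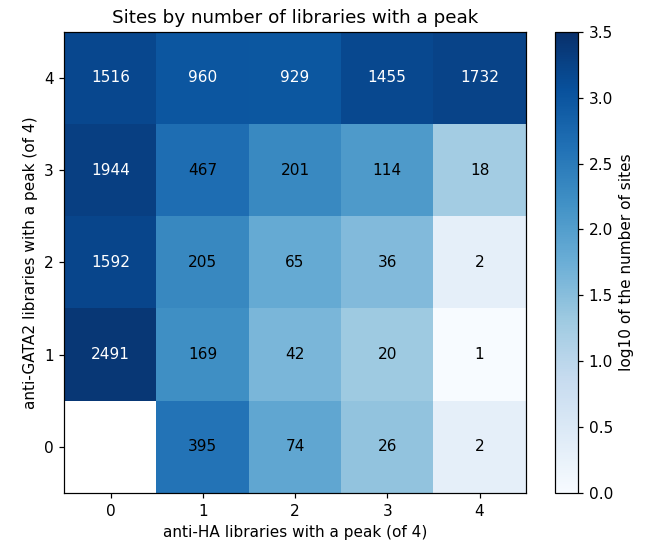
Number of sites by how many of the 4 anti-HA libraries (horizontal axis) and of the 4 anti-GATA2 libraries (vertical axis) had a peak there, with colour on a log10 scale. The upper row runs over 1516, 960, 929, 1455 and 1732 sites as anti-HA libraries go up, while the lowest row holds 395, 74, 26 and 2 sites.

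Lists of equal length still differed more between the antibodies than within them. The Jaccard index of 2 libraries (sites in both as a percent of sites in either) averaged 49.2% within anti-HA (6 pairs), 67.0% within anti-GATA2 (6 pairs) and 36.8% between the antibodies (16 pairs), and the between pairs lay 21.3 points below the mean of the within pairs (exact permutation p = 0.0286 over 35 splits). With the 1912 strongest peaks of each list these means were 63.7%, 78.2% and 54.2% (exact permutation p = 0.0286). In that setting 109 sites had a peak in 4 of 4 anti-HA and 0 of 4 anti-GATA2 libraries, and 146 sites the opposite.

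Overlap with the other antibody went with peak rank on the anti-GATA2 side. In the strongest decile of each anti-GATA2 list, 94.8% to 99.0% of peaks lay at sites of at least 3 anti-HA libraries. In the weakest decile 3.34% to 14.3% did. On the anti-HA side 99.8% to 100% of peaks of the strongest decile lay at sites of at least 3 anti-GATA2 libraries. In the weakest decile 63.8% to 97.4% did. The highest value of the weakest anti-HA decile came from a list of few peaks, replicate 4.

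**Figure D3:**
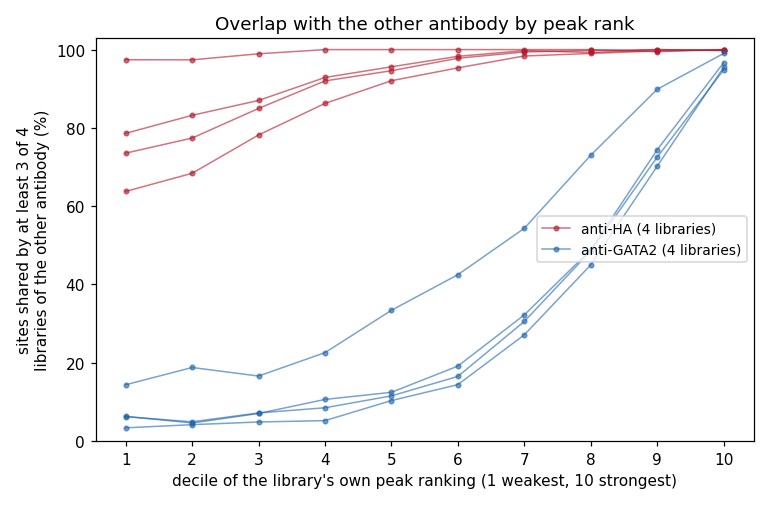
Percent of a library's peaks at sites shared by at least 3 of 4 libraries of the other antibody (vertical axis) in each decile of the library's own peak ranking (horizontal axis, 10 is strongest), with a line per library. All 4 anti-HA lines stay at or above 63.8%, and the 4 anti-GATA2 lines climb to at least 94.8% in the strongest decile.

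A total of 1516 sites (10.5% of the 14456) had a peak in 4 of 4 anti-GATA2 and 0 of 4 anti-HA libraries, and 2 sites (0.0138%) had the opposite. Both kinds reach the smallest Fisher p of 0.0286 per site. After Benjamini-Hochberg adjustment over the 2070 sites found in exactly 4 of 8 libraries, which alone could reach that p, 1518 (73.3%) were called (adjusted Fisher's exact p = 0.0390). Adjusted over every site, 0 (0.00%) were called (adjusted Fisher's exact p = 0.272), against 1518 at an unadjusted p under 0.05. With any single library left out, 0 sites were called (adjusted Fisher's exact p of 0.0621 to 0.0794), except without anti-GATA2 replicate 1, where 3296 of 5092 sites were called (adjusted Fisher's exact p = 0.0441).

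The sites of anti-GATA2 alone were mostly in the middle and lower part of the anti-GATA2 lists. Their median percentiles were 29.2, 48.8, 53.1 and 50.2 in anti-GATA2 replicates 1 to 4, with medians of 29, 41, 43 and 42 fragments at the summit. The sites in all 8 libraries had median percentiles of 84.8, 90.3, 91.5 and 90.6 in the same libraries. The strongest ones were the exceptions, at mean percentiles of 85.7 to 92.2. They lay 9104 bp from KSR1 (a scaffold of the MAP kinase cascade; chr17:27446771-27447344), inside MAK (a kinase gene; chr6:10771252-10771924), inside SELENBP1 (a selenium-binding protein; chr1:151370234-151370785) and inside EZH2 (the methyltransferase of Polycomb complex 2; chr7:148828827-148829400), among others. The site near KSR1 had a peak in 4 of 4 WT, 1 of 4 EV anti-GATA2 and 4 of 4 HA-T354M anti-GATA2 libraries, and in no HA-T354M anti-HA library.

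The 2 sites of anti-HA alone did not resemble each other. A site at chr17:19063363-19063799, 11990 bp from GRAP (an adaptor protein of the GRB2 family), stood at a mean percentile of 88.4, with 47 and 50 fragments in anti-HA replicates 1 and 2. It also had a peak in 3 of 4 EV anti-HA libraries, from cells given no tagged protein, in 4 of 4 HA-T354M libraries of each antibody and in 3 of 4 WT libraries. A site inside IL17RE (an interleukin-17 receptor subunit; chr3:9912459-9912860) stood at percentiles 33.3, 40.4, 43.6 and 24.8 in the anti-HA libraries and had a peak in 1 WT library and in none of the other groups. Sites in at least 3 anti-HA and 0 anti-GATA2 libraries numbered 28, and 25 of them were missing from anti-HA replicate 4 alone. Of the 28, 4 lay at replication-dependent histone genes, 9 had a peak in all 4 WT libraries and 3 had a peak in an EV anti-HA library. The site at H2AC20 and H2BC21 (chr1:149886464-149887145) had a peak in 4 of 4 EV anti-HA and 4 of 4 HA-T354M anti-HA libraries, and in no anti-GATA2 library of the series. The part of background tagging in these sites was not tested.

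At the 1732 common sites the order of peak strength differed between the antibodies. Spearman's rho of the ranks averaged 0.836 (0.787 to 0.881) within anti-HA, 0.945 (0.930 to 0.955) within anti-GATA2 and 0.674 (0.597 to 0.716) between them, a description over sites that share the libraries. Ranks were compared as normal scores with limma. After Benjamini-Hochberg adjustment 368 sites (21.2%) ranked higher and 360 (20.8%) ranked lower with anti-HA. Ranks within a library have a fixed sum, so the balance of the counts is built in. The anti-HA and anti-GATA2 ranks did not overlap at 326 (18.8%) sites that were higher and 325 (18.8%) that were lower with anti-HA. The median absolute difference of mean percentile over all common sites was 13.0 points.

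**Figure D4:**
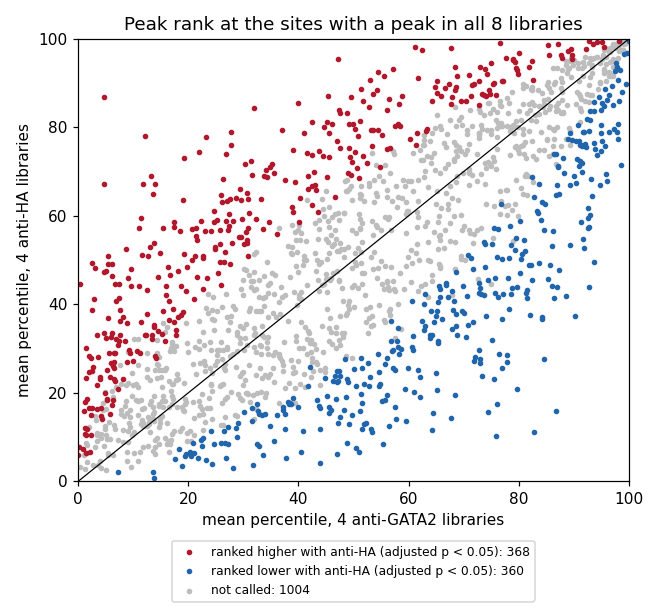
Mean percentile of each of the 1732 common sites among those sites in the 4 anti-HA libraries (vertical axis) and in the 4 anti-GATA2 libraries (horizontal axis), coloured by the limma call. Points above the diagonal rank higher with anti-HA, and 1004 sites were not called.

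The site with the largest difference toward anti-HA lay 81692 bp from ZDHHC20 (a palmitoyltransferase gene; chr13:21289779-21290879). Its percentiles among the common sites were 87.2, 85.5, 87.8 and 86.9 with anti-HA, against 1.56, 5.83, 6.61 and 5.17 with anti-GATA2. All anti-HA values lay far above all anti-GATA2 values (score difference 2.83 ± 0.176 SE, limma adjusted p = 2.8e-06). It had 47, 53, 62 and 32 fragments with anti-HA and 31, 45, 52 and 45 with anti-GATA2, so its fragments were close in number. The median over all common sites was lower in every anti-HA library than in any anti-GATA2 library. The site near ZDHHC20 had a peak in all 8 HA-T354M libraries and in no WT or EV library. Sites 64503 bp from TBX18 (a T-box factor; chr6:84667439-84667993) and 142364 bp from FBXW7 (a ubiquitin ligase subunit; chr4:152177407-152178180) followed, at mean percentiles of 78.0 and 67.1 with anti-HA, against 12.2 and 4.65 with anti-GATA2.

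Toward anti-GATA2, a site inside MIS18A (a centromere factor; chr21:32181239-32182271) had percentiles of 8.40, 9.06, 10.4 and 17.1 with anti-HA, against 72.1, 85.3, 85.1 and 88.9 with anti-GATA2. It held 40, 45, 49 and 34 fragments with anti-HA and 167, 271, 315 and 329 with anti-GATA2. A site inside NCOA3 (a nuclear receptor coactivator; chr20:47524163-47525172) had 17.3, 13.0, 16.8 and 16.8 with anti-HA, against 84.4, 86.3, 86.5 and 89.9 with anti-GATA2 (score difference -2.12 ± 0.148 SE, limma adjusted p = 5.2e-06). Both sites had a peak in every library of the 3 other anti-GATA2 groups (WT, EV and HA-T354M), and in no HA-T354M anti-HA library. Further sites of the same rule lay in ADCK1, HSF2, SRSF4 and APOC1 and 109956 bp from METTL14. None of these had a peak in an HA-T354M anti-HA library. Of the 8 extreme sites toward anti-HA, those in CXADR and nearest to LOC105372073 had none either.

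Peaks of the other groups fell at different shares of these classes of sites. HA-T354M anti-HA libraries had a peak at 29.6% to 46.2% of the sites that ranked higher with anti-HA, against 11.1% to 23.3% of those that ranked lower. The order was the other way round for EV anti-GATA2 libraries (42.7% to 63.6% against 65.8% to 89.2%, and 47.0% to 63.6% against 71.9% to 89.2% without EV replicate 1) and for WT libraries (82.6% to 89.4% against 94.7% to 98.1%). The sites that ranked lower with anti-HA were also the stronger ones with anti-GATA2, at a median of mean percentiles of 70.01 against 27.6. Those that ranked higher were the stronger ones with anti-HA, at 60.7 against 36.2. The part of either difference in these shares was not tested. At the sites of anti-GATA2 alone, WT libraries averaged 47.7 ± 8.09%, EV anti-GATA2 libraries 11.6 ± 6.81% and HA-T354M anti-GATA2 libraries 30.5 ± 15.8% (SD, n = 4 each), against 91.3%, 64.4% and 90.1% at the common sites. EV anti-GATA2 without its replicate 1 averaged 13.0 ± 7.59% (SD, n = 3). These shares move with how the sites were chosen: with lists of equal length they were 94.2%, 63.4% and 91.8%, and without anti-GATA2 replicate 1 of the HA-GATA2 cells they were 36.5%, 7.29% and 19.98%. No HA-T354M anti-HA or EV anti-HA library had a peak at any of the 1516 sites. EV anti-HA libraries had no peak at the 1732 common sites either. The 1516 sites were chosen for having no anti-HA peak in the HA-GATA2 cells. The HA-T354M anti-HA lists were also short, with a ratio of 0.125 to the anti-GATA2 lists in peak number. Peaks of other anti-HA libraries were therefore unlikely at the 1516 sites from the start.

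**Figure D5:**
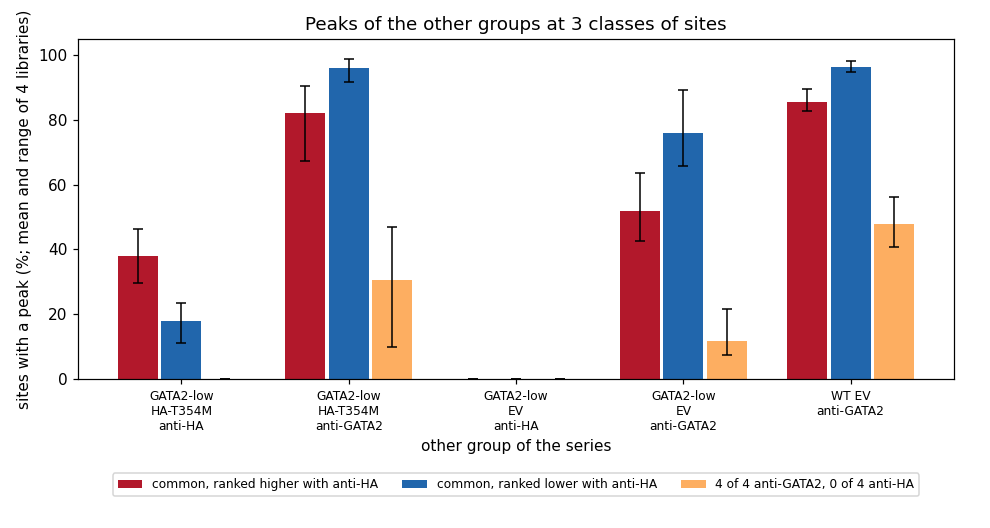
Percent of sites with a peak in the libraries of the other groups (bars, mean; lines, lowest and highest of 4 libraries) for common sites that ranked higher or lower with anti-HA and for sites of 4 of 4 anti-GATA2 and 0 of 4 anti-HA libraries. Bars for HA-T354M anti-HA stand at 37.9%, 17.99% and 0.

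The strongest common sites stood high with both antibodies. The highest mean percentile of the common sites, 99.98, was inside ZFPM2 (FOG2, a cofactor of GATA factors; chr8:105520079-105521301), with 240 and 263 fragments in anti-HA replicates 1 and 2. A region 215983 bp from MYC (chr8:127958934-127961600), NDRG1 (chr8:133270710-133272795) and a region 735 bp from PDZK1IP1, beside TAL1 (chr1:47180225-47182847), were among the next, at mean percentiles of 99.8 to 99.9. These sites had a peak in 4 of 4 libraries of WT, EV anti-GATA2 and both HA-T354M groups.

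Summits at common sites lay a median of 26.8 bp apart within anti-HA pairs, 6.0 bp within anti-GATA2 pairs and 25.1 bp between the antibodies. The between pairs exceeded the mean of the within pairs by 8.65 bp (exact permutation p = 0.0286), but were no farther apart than anti-HA libraries were from each other, and without any single anti-GATA2 replicate the exact permutation p was 0.143. Peaks lay within 1000 bp of a gene end in 9.37 ± 2.69% of anti-HA peaks and 11.6 ± 1.20% of anti-GATA2 peaks, inside genes in 49.2 ± 1.09% and 50.0 ± 0.726%, and outside genes in 41.5 ± 1.63% and 38.4 ± 0.817% (SD, n = 4 each). The adjusted exact permutation p was 0.257, 0.257 and 0.0857 for these classes.

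A gene was given a peak that lay in it or within 10 kb. Its position is that of its strongest peak in a library, which can be at a different site in each library. Of 6789 genes with a peak in any of the 8 libraries, 1137 (16.7%) had it in all 8, 720 (10.6%) in 4 of 4 anti-GATA2 and 0 of 4 anti-HA, and 2 (0.0295%) the opposite. With lists of equal length these counts were 97 and 61, and without anti-GATA2 replicate 1 the anti-GATA2 count was 1370. The 2 genes were IL17RE and IL17RC, interleukin-17 receptor genes that share the site above. Adjusted over all genes, 0 (0.00%) were called (adjusted Fisher's exact p = 0.269), against 722 at an unadjusted p under 0.05.

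Lists of genes are given by their counts, beside 5.69% of all 19970 protein-coding genes with a peak in all 8 libraries and 3.61% with peaks in 4 of 4 anti-GATA2 and 0 of 4 anti-HA libraries. Of 12 partner factors of GATA2, 7 had a peak in all 8 and 0 had the anti-GATA2 pattern. ZFPM1 (FOG1, the GATA1 cofactor) had its strongest peak at positions 91, 97, 88 and 41 from the top with anti-HA, against 273, 558, 252 and 484 with anti-GATA2. It stood higher in every anti-HA list by position, while its percentiles within the lists overlapped (97.8 to 98.6 with anti-HA and 94.9 to 97.9 with anti-GATA2). GATA1 stood at 410, 849, 1162 and 710 with anti-HA, against 606, 1245, 868 and 1156 with anti-GATA2. RUNX1 had a median position of 843.5 with anti-HA and 978 with anti-GATA2. The positions of GATA1 and RUNX1 overlapped between the antibodies, as did those of LYL1 (a basic helix-loop-helix factor; 279, 293, 537 and 940 with anti-HA, 252, 687, 548 and 753 with anti-GATA2). LMO2, a bridging protein of the complex, was farther down with anti-HA at 852, 1627, 1162 and 928, against 458, 649, 719 and 495 with anti-GATA2. LDB1, the protein that joins distant complexes, and ERG had peaks in 3 anti-HA and 4 anti-GATA2 libraries, SPI1 in 1 and 4, and CBFA2T3 in 0 and 2. FLI1 had none in any of the 8.

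Of 16 core GATA2 targets, 6 had a peak in all 8 libraries, 0 had the anti-GATA2 pattern and 5 had a peak in none. HDC, the enzyme that makes histamine, stood at positions 5, 5, 5 and 18 from the top with anti-HA, against 48, 122, 173 and 174 with anti-GATA2. MITF, a factor of mast cells and melanocytes, stood at 396, 239, 393 and 445 with anti-HA, against 1745, 1384, 1031 and 1316 with anti-GATA2. Both genes stood higher in every anti-HA list by position, while their percentiles within the lists overlapped between the antibodies (for MITF 76.8 to 95.2 with anti-HA and 75.3 to 91.5 with anti-GATA2). CD34, a surface marker of progenitors, was farther down with anti-HA at 515, 539, 621 and 619, against 243, 438, 246 and 260 with anti-GATA2. CEBPE, GFI1B and MYB had median positions of 337.5, 580.5 and 1513 with anti-HA and 155, 467 and 1160 with anti-GATA2. The positions of each of these genes overlapped between the antibodies. MECOM, IKZF1 and MYC had peaks in 3 anti-HA and 4 anti-GATA2 libraries. KIT, which binds the cytokine SCF, had peaks in 1 anti-HA and 4 anti-GATA2 libraries, and CEBPA in 0 and 3. GFI1, HHEX, MEIS1, TRIB2 and SAMD14 had none.

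Among red cell genes, 17 of 35 genes of the membrane and iron list, 7 of 25 of the globin and heme list and 5 of 19 erythroid transcription factors had a peak in all 8 libraries, and 2, 1 and 0 had the anti-GATA2 pattern. Those with the pattern were ADD2 (membrane skeleton), XK (a blood group protein) and ALAS1 (heme synthesis). KEL, HBZ and ZBTB7A had peaks in 0 anti-HA and 3 anti-GATA2 libraries, ALAD, TCF3 and TCF4 in 1 and 4, and MAFG in 2 and 4. HBG1, a gene of fetal globin with a near-identical copy beside it, had them in 2 and 4.

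Of 30 cytokine receptor and signalling genes, 4 had a peak in all 8 libraries and 3 had the anti-GATA2 pattern (SOCS2, CISH and TGFBR2), and IL6ST had peaks in 0 anti-HA and 3 anti-GATA2 libraries. Of 27 mast cell, basophil and eosinophil genes these counts were 2 and 0. IL4 had peaks in 1 anti-HA and 4 anti-GATA2 libraries, and HPGDS and SIGLEC6 in 0 and 3. ALOX5AP, a protein of leukotriene synthesis, had them in 3 anti-HA and 0 anti-GATA2 libraries, at percentiles 16.5, 31.5 and 34.3 of the anti-HA lists.

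Of 26 megakaryocyte and platelet genes, 0 had a peak in all 8 libraries and 1 had the anti-GATA2 pattern (TUBB1, a platelet tubulin), with F2R, ITGB3 and PLEK in 0 anti-HA and 3 anti-GATA2 libraries. Of 26 neutrophil and monocyte genes the counts were 1 and 1 (FCGR3A), with CSF1R in 1 and 4, CD68 in 2 and 4 and CCR2 in 2 and 3. Of 24 lymphocyte genes they were 0 and 3 (CCR7, IL2RA and EBF1), with CD79A in 0 and 3. Of 26 genes of unrelated tissues they were 1 and 1 (GAD1), with SYP in 1 and 4, COL1A1 in 2 and 4 and GAD2 in 3 and 4. Of 25 housekeeping genes they were 0 and 1 (REEP5), with EMC7 in 0 and 3, YWHAZ in 1 and 4 and PSMB4 in 3 and 4. No test of a list against the other genes was made.

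In GATA2-low cells with HA-T354M the anti-HA to anti-GATA2 ratio of peak numbers was 0.125, against 0.384 in the HA-GATA2 cells. The difference of the log2 ratios was 1.62 (exact two-sided permutation p = 0.195 over 4900 splits). The permutation exchanges the 2 constructs within each antibody, so large differences between the constructs widen its spread, and the p does not show that the ratios were alike.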

How the data were processed

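CUT&Tag was measured in 8 libraries, 4 per antibody, grouped by their titles. The submitters' processing notes name MACS2 2.2.7.1, Bowtie2 2.2.5, deepTools 3.5.3, cutadapt 3.3 and FastQC with build hg38, without settings. The authors deposited a narrowPeak list per library, whose fold enrichment is a linear ratio and whose p and q are -log10 values; these are the authors' values for a peak and served here only for order and filters within a list and for recovering fragments. Peaks on chromosome Y, the mitochondrial and unplaced sequences were left out (203 deposited peaks of the 8 lists).

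Peaks of all 28 lists on chromosomes 1 to 22 and X were merged into sites (overlap of at least 1 bp). Fragments at a summit were solved from fold and p (tolerance 0.03%); a scaling is fixed only up to a whole divisor and the largest one was taken. Depth is not given with the lists, so precision rests on the number of libraries. Sites and genes were tested by Fisher's exact test, groups by exact permutation, ranks by limma 3.58.1 in R 4.3.3, each with Benjamini-Hochberg adjustment. Gene positions came from RefSeq GRCh38.p14, which gives no exons. Scripts were tested on simulated data; there the adjusted site test called planted sites only where they were numerous, so those calls depend on how many such sites a comparison holds.

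The libraries compared, gene lists and site classes were chosen with earlier results of these data known. Named genes are all of the partner and core target lists and, from every further list, up to 4 whose library numbers differ most; named sites are the up to 10 of each class with the highest mean percentile and up to 8 of each direction with the largest rank difference. Alternatives were a stricter q, equal list length, trimmed peaks, sites of the 8 libraries alone, thinned fragments, other windows, another rank measure, and leaving out each replicate. Same-numbered libraries were not paired by the labels. Results that name withheld items are not reported here.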

Additional observations from a re-analysis of the deposited data

Results flagged for a closer look

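Per-library measures in groups of 4 were screened for a library far from the other 3 (28 screens; chance flags about 1 in 20), and 4 stood apart. Anti-HA replicate 4 had a median peak width of 334 bp, against 368 to 375 bp in the other anti-HA libraries, and 43.9% of its peaks outside genes, against 40.4% to 40.8%. Anti-GATA2 replicate 1 had a median of 43 fragments at the summit, against 45 in each of the other anti-GATA2 libraries. Those medians were tied, so any other value would have been flagged. It also had 46.0% of its sites in at least 3 anti-HA libraries, against 27.8% to 30.8% in the other anti-GATA2 libraries. These are the shortest lists of their antibodies, and the part of list length was not tested.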

How the results depend on the processing

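Of 272 alternative values of 20 results, 222 counted as the same. Tested results had to keep their direction and side of the threshold for this. Counts had to stay within 1.5 times, and shares in other groups within the SD. Of the rest, 10 lost the call, 2 gained it, 37 counts or shares moved farther, and 1 tested result reversed. The reversed one was the gene-end difference (-2.23 points), which was 0.366 points with lists of equal length, neither called.
With pairs of same-numbered libraries as a replicate block, the log2 ratio of peak numbers stayed at -1.38 (exact permutation p = 0.125, the smallest 4 pairs allow). The rank calls were then 357 higher and 352 lower, and no position class was called (adjusted exact permutation p = 0.125). Deviations of same-numbered libraries at the sites had correlations of -0.0292 to 0.0427. These values do not settle whether same-numbered libraries shared a culture or batch, which the labels do not give.
With lists of equal length, sites of anti-HA alone were 109, of anti-GATA2 alone 146 and of all 8 libraries 964; the share gap was 1.59 points, rank calls were 196 and 214, and genes were 61 and 97. The sites of anti-GATA2 alone then had a peak in 94.2% (WT), 63.4% (EV anti-GATA2), 91.8% (HA-T354M anti-GATA2) and 0.856% (HA-T354M anti-HA) of cases; the cause was not tested.
At a -log10 q of at least 15, sites of anti-HA alone were 1, of all 8 libraries 1116, genes of anti-HA alone 0, higher ranks 235, and the inside and outside differences (-1.81 and 3.56 points) were called.
Trimmed peaks gave 7 sites of anti-HA alone and 0.0488% HA-T354M anti-HA peaks; sites of the 8 libraries alone gave 0.0164%. Gene bodies gave 1 and 458 genes, a 50 kb window 8 and 1118.
Leaving out one replicate gave ratios of -1.59 to -1.04 on the log2 scale, 2 to 27 sites of anti-HA alone (27 without anti-HA replicate 4), 1522 to 3293 of anti-GATA2 alone (3293 without anti-GATA2 replicate 1), 1732 to 3105 of all 8 (3105 without anti-HA replicate 4), 281 to 582 higher and 256 to 574 lower ranks, summit differences of 4.86 to 13.2 bp, 2 to 12 and 720 to 1370 genes, and shares at sites of anti-GATA2 alone of 36.5% to 49.8% (WT), 7.29% to 12.5% (EV anti-GATA2), 19.98% to 33.5% (HA-T354M anti-GATA2) and 0 to 0.0290% (HA-T354M anti-HA).
Other choices were added after seeing the data: ranking by recovered fragments gave 271 and 262 calls, and leaving out anti-HA replicate 4 and anti-GATA2 replicate 1 together gave 29, 3303 and 3221 sites and 1370 genes.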
